A study of Saccharomyces cerevisiae with 18 samples.

Results

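Basket-less nuclear pores of budding yeast were compared with the background of the matrix that caught them. The comparison sets 3 libraries of polyadenylated RNA that came down with pores labelled basket-less against 3 libraries from background purifications labelled GFP, 6 of the 18 libraries of the series, taken by their titles. Both groups were W303 cells from asynchronous log-phase cultures in YPD, a rich glucose medium, frozen and ground before a purification on a GFP nanobody, which is a small antibody fragment that binds green fluorescent protein. The RNA was extracted with Trizol and selected for poly(A) tails. Neither the tagged protein on the basket-less pores nor the genotype of the control cells is given in the sources used here. The 3 input libraries, from total extract, served as a common reference, and the series also holds basket-containing pores and a background control labelled PrA, both purified on IgG, and all nuclear pore complexes caught on the GFP nanobody.

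The nuclear pore complex is the channel through which mRNA leaves the nucleus. On its nuclear side many pores carry a basket of filaments, built in yeast around Mlp1 and Mlp2 with Nup60, Nup1 and Nup2. Pores that lie over the nucleolus, where ribosomal RNA is made, are known to lack the basket. Several inducible genes, among them GAL1, INO1 and HXK1, are known to move to the pore when they are switched on.

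The 6 libraries held 10592840 to 14050861 counts. Pairs of libraries differed by more than counting error, which gives a chi-square of 1 per degree of freedom: the ratio was 1.62 to 1.99 in basket-less pores and 2.85 to 4.99 in the GFP control. Levels are given as CPM, counts scaled to library size with edgeR's TMM factors, and log2 fold changes ± standard error from edgeR's quasi-likelihood test, with 3 libraries per group. A gene rose or fell where its Benjamini-Hochberg-adjusted p was below 0.05. The labels do not say whether replicates were separate cultures, so the p-values cover the spread among these libraries and no more, and that spread may be technical. The log2 fold changes of strain marker genes also differed between the groups, at -1.28 for URA3, -1.70 for HIS3, -1.52 for TRP1, 0.16 for LEU2 and 1.57 for ADE2 (edgeR). Their part in the other results, as signs of a difference between the strains, was not tested. LEU2 turned to -0.11 with upper-quartile factors. STE2, the receptor of a cells, had 217 CPM in the pores and 157 in the control, and STE3, that of alpha cells, 2.07 and 1.56.

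Of 6429 genes tested, 3025 (47.1%) were higher with basket-less pores and 2282 (35.5%) lower, 82.5% in all (edgeR). The 3 libraries of each group did not overlap for 47.7% of genes in the higher direction and for 36.3% in the lower. Changes of more than 2-fold covered 920 genes (14.3%) upwards and 728 (11.3%) downwards, and those of more than 4-fold 148 (2.3%) and 140 (2.18%). The ranking of rises and falls took genes that passed the test, with a standard name, 20 CPM in the higher group and no overlap between libraries. By it, the largest rises were those of 3 reading frames of the mitochondrial COX1 region (AI5_BETA, COX1 and AI2), followed by PHO89, GAC1, MGA1 and MTL1. AI4, another mitochondrial frame, had 5.44 but only 7.58 CPM in the pores. Of the 16 of the 20 largest rises with a coding length, 1 was over 3000 bases, and their median length was 1752 bases. The largest falls included RDN5-1, AAD6, OYE3, GTT2 and ARG3. The median of all genes was 0.11 on the log2 scale, and -0.16 with upper-quartile factors, which turned the calls from 57% upwards to 41.3%. Groups of genes are read below against the median of all genes.

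**Figure D1:**
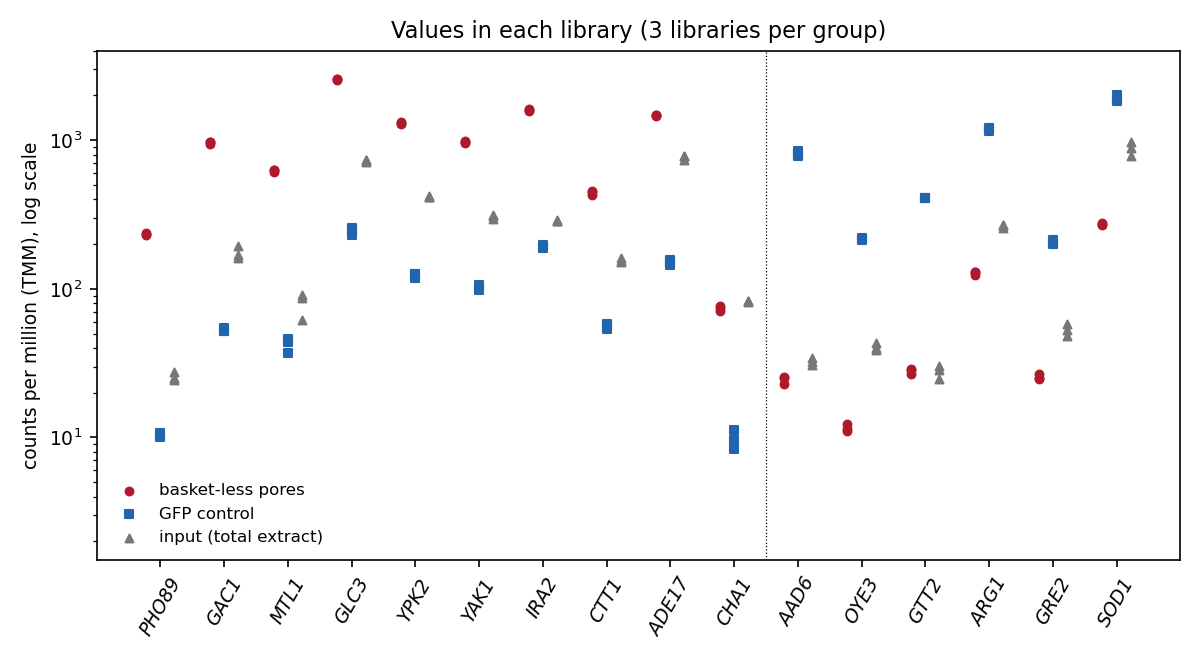
CPM on a log axis for 10 genes that rose and 6 that fell, in each library of basket-less pores, the GFP control and input (3 points per group, no averaging). The pore and control points do not overlap for any of the 16 genes, and GTT2 and CHA1 have pore points close to those of input (28.2, 28.9 and 26.7 CPM of GTT2 against 28.6, 24.9 and 30.2 in input).

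PHO89 (chrII:796798-798522, minus strand), the plasma membrane symporter of sodium and phosphate, had 231, 233 and 237 CPM in basket-less pores and 10.73, 10.44 and 10.03 in the control. Its libraries lay far apart, 22.4-fold on average (log2 fold change 4.49 ± 0.06, edgeR, adjusted p = 1.2e-26). The phosphate response as a list was near the shares of all genes. Of 25 genes tested, 13 rose (52%) and 7 fell (28%), against 47.1% and 35.5% of all genes. Its median was 0.16 and turned to -0.10 with upper-quartile factors. Within that list PHO2, a homeodomain activator of phosphate genes, rose by 1.77, and VTC1, of the vacuolar polyphosphate polymerase, had a change of -1.43.

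Glycogen metabolism moved as a group. Of its 17 genes 16 rose, none fell, and the median was 1.69 against 0.11 for all genes. GAC1 (chrXV:667860-670241, minus strand), which targets protein phosphatase 1 to glycogen synthase, had 967, 976 and 947 CPM in the pores and 54.9, 52.1 and 52.1 in the control. Every pore library exceeded every control library, by 18.2-fold on average (4.18 ± 0.07, edgeR, adjusted p = 2.5e-23). GLC3 (chrV:133120-135234, plus strand), the branching enzyme, had 2594, 2582 and 2548 CPM against 255, 240 and 230. The libraries again did not overlap (3.41 ± 0.04). GSY1, a glycogen synthase, rose by 3.04, GPH1, the phosphorylase that breaks glycogen down, by 2.70, and GDB1, the debranching enzyme, by 1.69, so that enzymes of synthesis and breakdown rose alike. The 17 genes took 1.420 ± 0.002% of counts in the pores, 0.304 ± 0.002% in the control and 0.602 ± 0.003% in input (SD, n = 3 each). The pore and control shares do not overlap, and the exact two-sided permutation test of them gave p = 0.1, the smallest it can give with 3 against 3.

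Trehalose is the other storage carbohydrate of yeast. All 7 of its genes tested rose, with a median of 1.35. TPS2, the phosphatase of trehalose synthesis, had 2879.5, 2867.7 and 2868.5 CPM in basket-less pores and 447.5, 452.5 and 436.9 in the control (2.69 ± 0.03). The control libraries formed a tight group below all pore libraries. TPS3 and TSL1, regulatory subunits, rose by 1.84 and 1.34, while NTH1 and ATH1, trehalases, rose by 1.35 and 1.46. The smallest rises of the list were 0.62 for TPS1, the synthase, and 0.49 for NTH2.

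Of 29 genes of the general stress response, which the zinc-finger activators Msn2 and Msn4 drive, 25 rose and 4 fell, with a median of 1.23. CTT1, cytosolic catalase (chrVII:654634-656322, plus strand), had 430, 447 and 454 CPM against 56.9, 54.0 and 57.6. The groups lay 7.90-fold apart (2.98 ± 0.05, edgeR, adjusted p = 3.5e-25). HSP12, a small membrane-associated stress protein, went the other way, with 53.0, 55.5 and 57.2 CPM in the pores and 174.9, 192.6 and 181.8 in the control (-1.73 ± 0.15). Its coding region is 330 bases long. YGP1, PNC1 and GRE3 were the other members that fell. GLC3, GPH1, GSY2, PGM2, TPS1, TPS2 and TSL1 stand both in this list and in the storage lists. Heat shock chaperones were divided: 14 of 29 rose (48.3%) and 13 fell (44.8%), against 47.1% and 35.5% of all genes. Their median of 0.10 turned to -0.17 with upper-quartile factors. BTN2, a small chaperone-like sorting factor for misfolded proteins, rose by 3.26, and HSP42 by 1.96. HSP31 had 69.0, 69.0 and 67.3 CPM in the pores against 425, 463 and 421 (-2.67 ± 0.07).

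The promoters of GLC3 and CTT1 are printed because the stress list turns on the stress response element, AGGGG, shown in capitals with its reverse complement. Each runs from 250 bases before to 50 after the start of the coding region, 5′ to 3′ on the gene's strand, from the RefSeq R64 genome of strain S288C, not W303. The GLC3 window is chrV:132870-133169 and the CTT1 window chrVII:654384-654683, both on the plus strand.
GLC3: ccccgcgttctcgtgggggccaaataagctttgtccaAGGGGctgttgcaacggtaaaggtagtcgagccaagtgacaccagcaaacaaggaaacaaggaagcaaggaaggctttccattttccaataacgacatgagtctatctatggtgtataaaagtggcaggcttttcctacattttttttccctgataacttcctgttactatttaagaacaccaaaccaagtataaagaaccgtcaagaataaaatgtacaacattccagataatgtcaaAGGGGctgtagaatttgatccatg
CTT1: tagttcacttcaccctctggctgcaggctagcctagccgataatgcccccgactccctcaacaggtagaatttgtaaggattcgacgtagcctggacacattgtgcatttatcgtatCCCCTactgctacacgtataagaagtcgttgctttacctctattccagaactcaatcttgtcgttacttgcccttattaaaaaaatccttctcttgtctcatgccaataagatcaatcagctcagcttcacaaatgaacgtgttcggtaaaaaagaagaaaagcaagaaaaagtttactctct
GLC3 had 2 matches, 1 of them inside the coding part of the window, and CTT1 had 1. On either strand, AGGGG was present in 21 of 29 promoters of the stress list (72.4%), in 7 of 17 glycogen promoters (41.2%) and in 42 of 104 promoters of genes more than 4-fold higher (40.4%). It was present in 22% of the 5768 promoters of genes tested and in 22.2% of those of genes more than 4-fold lower. Genes of the stress list are known for control through this element, so its share there follows from the choice of list. It is no result of these data. Some of its members also stand in the glycogen list, so the 2 shares are not independent. A match says only that the letters are there.

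Regulators of the Ras and protein kinase A pathway, which signals glucose through cyclic AMP, rose in 19 of 22 cases and fell in 1, with a median of 0.99. YAK1, a kinase that works against protein kinase A in growth control, had 964, 992 and 968 CPM in basket-less pores and 106, 97.5 and 105 in the control (3.24 ± 0.06). IRA2, which switches Ras off (chrXV:171070-180309, plus strand), had 1614, 1594 and 1585 CPM against 190, 196 and 188 (3.06 ± 0.05). In both genes the pore libraries were all near the same high level and the groups did not overlap. CYR1, adenylate cyclase, rose by 1.89, and RIM15, a kinase needed to enter stationary phase, by 1.62, so that activators and inhibitors of the pathway rose together. BCY1, the regulatory subunit of protein kinase A, had a change of -0.09. All 15 members of the TOR complexes and the phosphatidylinositol kinase family rose, with a median of 0.96. These are long genes, with a median coding length of 4365 bases, and most long genes rose. Relative to genes in the same class of coding length, the median of the list was 0.39, with 11 members above their class median and 4 below. VPS34, the kinase of vesicle sorting and autophagy, rose by 1.61, TOR1 by 1.31, PIK1 by 1.24 and FAB1 by 1.23. YPK2, a kinase downstream of TOR complex 2, had 1320, 1305 and 1285 CPM against 125, 119 and 125 (3.41 ± 0.04), and KIN82, a kinase that regulates lipid flippases, rose by 2.97.

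Of 11 sensors at the cell surface 7 rose (63.6%) and none fell (6 and 3 with upper-quartile factors), with a median of 0.45. Of all genes 47.1% rose and 35.5% fell. Relative to genes in the same class of coding length, the median of the sensors was -0.06, with 5 above their class median and 6 below. As a list they were therefore close to other genes of their length. MTL1, a sensor of wall damage, had 635, 631 and 615 CPM in the pores and 43.6, 37.2 and 46.0 in the control (3.89 ± 0.14). Its relative MID2 rose by 1.70, and HKR1, a mucin-like sensor, had 656, 657 and 654 CPM against 118, 107 and 123. The WSC sensors of the same pathway had smaller values: WSC3 rose by 0.45, and WSC4 had 69.5, 73.5 and 68.1 CPM in the pores against 64.3, 58.3 and 66.0, without overlap but with 0.16 ± 0.08 (edgeR, adjusted p = 0.069). JIP3, a dubious reading frame opposite MID2 whose reads cannot be told from those of MID2 without strand, had 3.56. Cell wall proteins rose in 25 of 35 cases and fell in 6, with a median of 0.51. SED1, an abundant wall protein, had a mean of 5493 CPM in the pores and 2650 in the control, while CCW12, a small one, had 1287 and 3404.

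Purine synthesis rose in 10 of 11 genes (90.9%) and fell in 1 (9.09%), against 47.1% and 35.5% of all genes. ADE2, given above as a strain marker, is among those that rose. ADE17, of the last steps of inosine monophosphate synthesis, had 1474, 1484 and 1448 CPM in basket-less pores, 156, 152 and 144 in the control and 788, 778 and 738 in input. The control libraries were the low ones, below input as well. ADE13 rose by 2.11, ADE2 by 1.57 and ADE1 by 1.48. For ADE13 and ADE2 the pores were close to input, with log2 fold changes over input of -0.01 and -0.18, while the control stood at -2.11 and -1.75. ADE3, of folate interconversion, was the member that fell (-0.20).

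Of 11 genes known to be recruited to the pore in yeast when induced, 7 rose (63.6%) and 2 fell (18.2%), with a median of 1.15. Of all genes 47.1% rose and 35.5% fell. CTT1 also stands in the stress list and HSP104 in the heat shock list. GAL7 rose by 2.25, GAL10 by 1.49, HSP104 by 1.37, SUC2 by 1.15 and INO1 by 0.67, besides CTT1. HXK1, a hexokinase, had 2840, 2943 and 2910 CPM against 1016, 1014 and 1034. GAL1 and GAL2 fell, with changes of -0.45 and -0.34, and GAL2 had only 11.9 CPM in the pores and 15.1 in the control. STL1 and TSA2 did not pass the test. The cells grew in glucose medium, in which GAL genes are repressed.

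The deepest fall among protein enzymes and their relatives was that of AAD6 (chrVI:14305-15431, minus strand), of the aryl-alcohol dehydrogenase family, which the R64 annotation lists as a pseudogene. It had 24.9, 22.8 and 25.7 CPM in basket-less pores, 789, 844 and 803 in the control and 30.7, 32.0 and 34.4 in input. The control was the outlying group, 33.2-fold above the pores (-5.05 ± 0.07, edgeR, adjusted p = 5.1e-27). OYE3, an NADPH oxidoreductase of the old yellow enzyme family (chrXVI:226169-227371, minus strand), had 11.4, 11.0 and 12.4 CPM against 213, 216 and 221 (-4.23 ± 0.06). GTT2, a glutathione transferase (chrXII:21138-21839, minus strand), had 28.2, 28.9 and 26.7 CPM against 407, 410 and 407 (-3.87 ± 0.07). In both genes all control libraries lay far above all pore libraries. Of 35 oxidoreductase and oxidative stress genes, many of them targets of the activator Yap1, 29 fell and 4 rose, with a median of -1.30. GRE2, a methylglyoxal reductase, had -3.01, SOD1, cytosolic superoxide dismutase, -2.80, and AHP1, a peroxiredoxin, -1.92. The 4 that rose were CAD1 and YAP1, which are transcription factors, ZTA1 and ADH7. The group took 0.496 ± 0.002% of counts in the pores, 1.37 ± 0.01% in the control and 0.725 ± 0.010% in input (SD, n = 3 each; exact permutation p = 0.1 for pores against control, the smallest possible).

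The promoters of these 3 genes are printed because each holds 2 matches to TTANTAA, the Yap1 element, which reads the same on both strands and is in capitals. The windows are built as above, chrXVI:227322-227621 for OYE3, chrXII:21790-22089 for GTT2 and chrVI:15382-15681 for AAD6, all on the minus strand.
OYE3: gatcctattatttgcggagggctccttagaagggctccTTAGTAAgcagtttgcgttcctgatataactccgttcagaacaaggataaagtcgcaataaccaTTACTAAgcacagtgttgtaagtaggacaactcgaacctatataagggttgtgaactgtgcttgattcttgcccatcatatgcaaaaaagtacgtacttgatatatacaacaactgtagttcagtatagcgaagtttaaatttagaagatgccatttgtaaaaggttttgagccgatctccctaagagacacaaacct
GTT2: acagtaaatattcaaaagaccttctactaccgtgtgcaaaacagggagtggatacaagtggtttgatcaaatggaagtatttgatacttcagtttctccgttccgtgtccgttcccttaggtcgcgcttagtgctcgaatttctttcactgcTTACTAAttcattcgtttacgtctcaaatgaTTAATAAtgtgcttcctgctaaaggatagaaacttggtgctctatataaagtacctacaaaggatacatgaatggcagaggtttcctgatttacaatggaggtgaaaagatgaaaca
AAD6: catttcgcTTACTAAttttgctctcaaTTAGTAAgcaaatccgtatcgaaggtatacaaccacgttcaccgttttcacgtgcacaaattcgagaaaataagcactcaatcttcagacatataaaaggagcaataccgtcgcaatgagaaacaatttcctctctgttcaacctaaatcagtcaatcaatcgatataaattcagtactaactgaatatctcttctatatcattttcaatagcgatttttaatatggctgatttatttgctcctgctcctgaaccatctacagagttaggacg
TTANTAA was present in 28 of 81 promoters of genes more than 4-fold lower (34.6%), in 8 of 16 promoters among the 20 largest falls (50%) and in 9 of 35 of the oxidoreductase list (25.7%). The shares were 18.2% in all promoters of genes tested and 18.3% in genes more than 4-fold higher. The stress list, most of which rose, held TTANTAA in 9 of 29 promoters (31%), and the oxidoreductase list, most of which fell, held AGGGG in 11 of 35 (31.4%). Neither motif was limited to one direction of change. Many genes of the oxidoreductase list are Yap1 targets, so its share of TTANTAA follows in part from the choice of list. The GRE2 window had no match.

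Arginine synthesis was split. ARG3, ornithine carbamoyltransferase, had 6.14, 6.28 and 5.18 CPM in basket-less pores, 65.2, 79.6 and 75.6 in the control and 48.4, 53.2 and 44.6 in input (-3.64 ± 0.15). ARG1, argininosuccinate synthetase, had 129.9, 129.9 and 124.7 CPM against 1200, 1155 and 1181, 9.20-fold apart. For both genes the pores lay below input and the control above it, with 270, 268 and 255 CPM of ARG1 in input. The log2 fold changes over input were -3.05 and 0.60 for ARG3, and -1.04 and 2.16 for ARG1. Of 14 arginine genes 8 fell and 6 rose. CAR1 and CAR2, which break arginine down, rose by 0.83 and 0.77. Sulfur and methionine genes fell in 16 of 21 cases, with a median of -0.55, led by CYS3, cystathionine gamma-lyase (-1.97). MET13 and MET6, at the methyl-transfer end of methionine synthesis, rose by 1.62 and 0.74.

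Ribosomal protein mRNAs were depleted as a class. Of 81 of the large subunit 77 fell and 3 rose, with a median of -1.11, and of 57 of the small subunit 55 fell and 1 rose, with a median of -1.04. RPL29 had 56.4, 61.1 and 54.8 CPM in the pores and 378, 373 and 367 in the control (-2.70 ± 0.14), a gap with no overlap. RPL41A and RPL41B, and RPS28A and RPS28B, fell by more, but each is a pair of near-identical copies whose reads may be split. The exceptions that rose were RPL4B by 0.46, RPL5 by 0.35, RPS7B by 0.43 and RPL3 by 0.11, and RPL3 was at -0.16 with upper-quartile factors. Nuclear genes of oxidative phosphorylation fell in 31 of 39 cases and rose in 4 (median -0.67). CYC1, cytochrome c, had 45.94, 46.49 and 49.05 CPM in the pores against 356, 376 and 347 (-2.93 ± 0.08), while CYC7, its hypoxic form, rose by 1.07. Proteins of the mitochondrial ribosome fell in 49 of 70 cases (median -0.46). Proteasome subunits fell in 20 of 32 cases (median -0.39). Within RNA polymerase II, RPO21, the largest subunit, rose by 0.98, and RPB11, a small one, had 39.6, 40.6 and 42.3 CPM against 177.2, 202.8 and 188.7 (-2.21 ± 0.11).

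Small nuclear and nucleolar RNAs, most of which carry no stable poly(A) tail, fell in 58 of 69 cases and rose in 2, with a median of -1.51. SNR30, a box H/ACA RNA of ribosomal RNA processing, had 6.60, 5.05 and 5.83 CPM in basket-less pores and 33.5, 42.1 and 35.5 in the control (-2.68 ± 0.16). SNR19, the U1 RNA of the spliceosome, had 2.75, 2.82 and 4.21 CPM against 26.5, 29.5 and 23.4 (-3.02 ± 0.19). All libraries of the pores lay below those of the control. RDN5-1, one of several near-identical 5S ribosomal RNA genes, had 3.30, 2.02 and 1.86 CPM against 188.0, 183.2 and 54.97, so that its level in the control differed widely among libraries. This class held 0.0213 ± 0.0016% of pore counts and 0.0560 ± 0.0016% of control counts (small nuclear and nucleolar RNAs, SD, n = 3 each).

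Input served as a reference for both sides of the comparison. Relative to it, 44% of genes rose and 36.1% fell with the pores, 80.1% in all, while 37.2% rose and 42.4% fell with the control, 79.6% in all (edgeR). Of the 20 genes that rose the most, the pores were above input in 19 and below in 1, CHA1, and the control was below input in 17. For GAC1 the pores stood at 2.47 over input and the control at -1.71, and for IRA2 at 2.47 and -0.59. CHA1, serine and threonine deaminase, had 71.1, 76.7 and 74.0 CPM in the pores, 11.2, 9.67 and 8.37 in the control and 82.3, 81.9 and 83.1 in input, so its rise of 2.92 over the control lay on the control's side. Of the 20 that fell the most, the pores were below input in 17 and the control above in 17. GTT2, AAD6 and YCH1 had log2 fold changes over input of -0.00, -0.41 and -0.00 in the pores and 3.86, 4.65 and 2.70 in the control. ARG3 had its larger part in the pores, at -3.05 against 0.60 in the control. Among the 920 genes more than 2-fold higher, the pores were above input in 789 and the control below in 656. Among the 728 more than 2-fold lower, the pores were below input in 529 and the control above in 529.

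**Figure D2:**
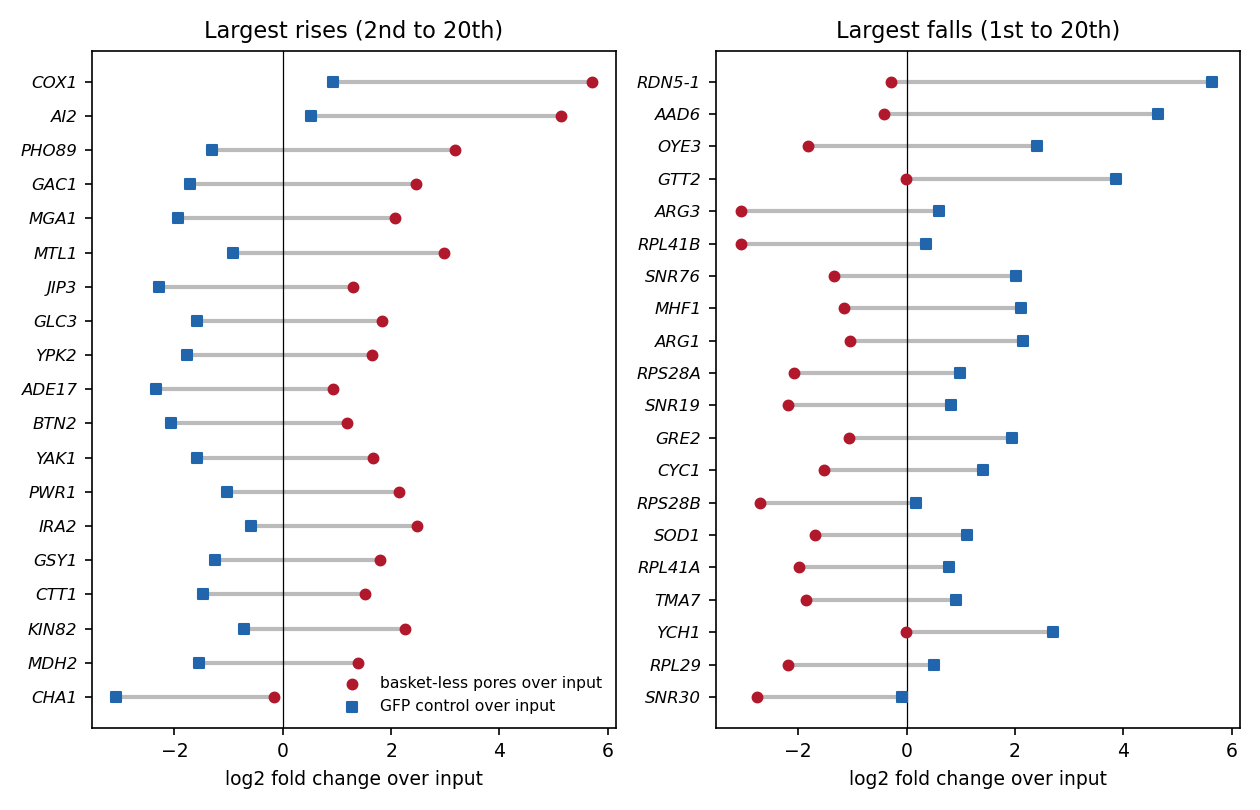
Log2 fold change over input (horizontal axis) of basket-less pores and of the GFP control for the 2nd to 20th largest rises, left, and the 20 largest falls, right; the grey line between the points is the change of pores over control. Most rises have the pores right of 0 and the control left of 0, CHA1 rests on the control (-3.08 over input), and GTT2 and YCH1 lie at 0 in the pores.

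Coding length ran through the whole comparison. Of 860 genes under 500 bases 13.0% rose and 64.9% fell, with a median of -0.73. Of 2174 genes of 1000 to under 2000 bases 58.3% rose and 23.3% fell, with a median of 0.26. Of 211 genes of 4000 bases or more 84.8% rose and 6.16% fell, with a median of 0.84. The median of the pores over input rose through the classes, from -0.53 in the shortest to 0.81 in the longest. That of the control went from 0.21 under 500 bases through -0.13 (1000 to under 2000) and -0.21 (2000 to under 3000) to 0.02 at 4000 or more. In the class of 1000 to under 2000 bases the pores stood at 0.16 and the control at -0.13, so both sides carried the change there. Without ribosomal proteins the shortest class had -0.64. With genes split into low, middle and high input levels, the shortest class had medians of -0.49, -0.96 and -1.23 and the longest class 0.47, 0.71 and 0.87. Genes of at least 3000 bases took 14.4 ± 0.05% of counts in the pores, 8.37 ± 0.07% in the control and 8.31 ± 0.11% in input, and genes under 500 bases 5.78 ± 0.03%, 13.3 ± 0.1% and 12.1 ± 0.2% (SD, n = 3 each; exact permutation p = 0.1 for pores against control, the smallest possible).

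**Figure D3:**
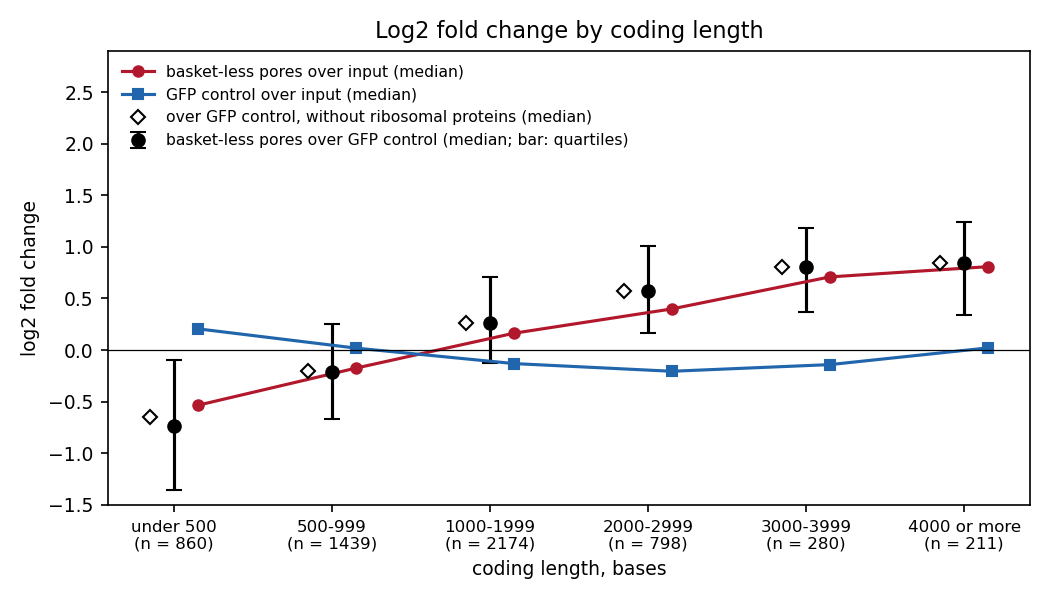
Log2 fold change by coding-length class (bases, number of genes under each class). Black points are medians over the GFP control with bars for the quartiles, diamonds the medians without ribosomal proteins, and the lines the medians of pores and control over input; the pore line climbs from -0.53 to 0.81 and the control line stays between -0.21 and 0.21.

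Other features of the genes were described by their medians, without a test. Genes without a stretch of hydrophobic residues (19 residues with a mean Kyte-Doolittle hydropathy of at least 1.6, read from translated R64 coding regions) had a median of 0.26 in the class of 1000 to under 2000 bases, and genes with 6 or more such stretches 0.27. In other length classes the medians differed: -0.27 against 0.25 (14 genes) from 500 to under 1000 bases, 0.63 against 0.25 (60 genes) from 2000 to under 3000, 0.85 against 0.58 (21 genes) from 3000 to under 4000 and 0.75 against 0.93 (19 genes) from 4000 up. The sign of the difference was not the same in all classes. Outside ribosomal proteins, genes with an intron had a median of -0.15 and those without one 0.18. Among those under 500 bases the medians were -0.90 and -0.61, and among those of 1000 to under 2000 bases 0.38 and 0.26. Genes within 20 kb of a chromosome end had a median of 0.08 and those over 50 kb away 0.15. Medians by chromosome ran from -0.01 for chromosome V to 0.23 for chromosome XIII.

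Set against genes of the same length class, the lists separated. Glycogen genes still had a median 1.32 above that of their length class, stress genes 0.97, Ras and protein kinase A genes 0.73 and trehalose genes 0.65. Oxidoreductase genes had a median of -1.11 and sulfur genes -0.82 relative to their class, and ribosomal proteins -0.66 for the large and -0.55 for the small subunit. Nuclear genes of oxidative phosphorylation came to -0.34, from a median of -0.67. Mitochondrial ribosomal proteins came to -0.23, from -0.46, and proteasome subunits stood at -0.40. Motors and chromatin remodellers, long genes that rose in 14 of 15 and 13 of 16 cases with medians of 0.51 and 0.70, came to -0.07 and 0.02. SMY1, a kinesin-related protein, rose by 1.79, and INO80, a remodelling ATPase, had 725, 745 and 739 CPM against 254, 266 and 263. PAC11, a dynein chain, and SNF6, a short subunit of SWI/SNF, were the members that fell, at -0.63 and -0.35. ATP-driven transporters rose in 20 of 24 cases with a median of 0.47 and stood at -0.34 relative to their class; PDR15 rose by 1.46 and DRS2, a flippase, by 1.25, and PMA1, the proton pump, had -0.56.

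**Figure D4:**
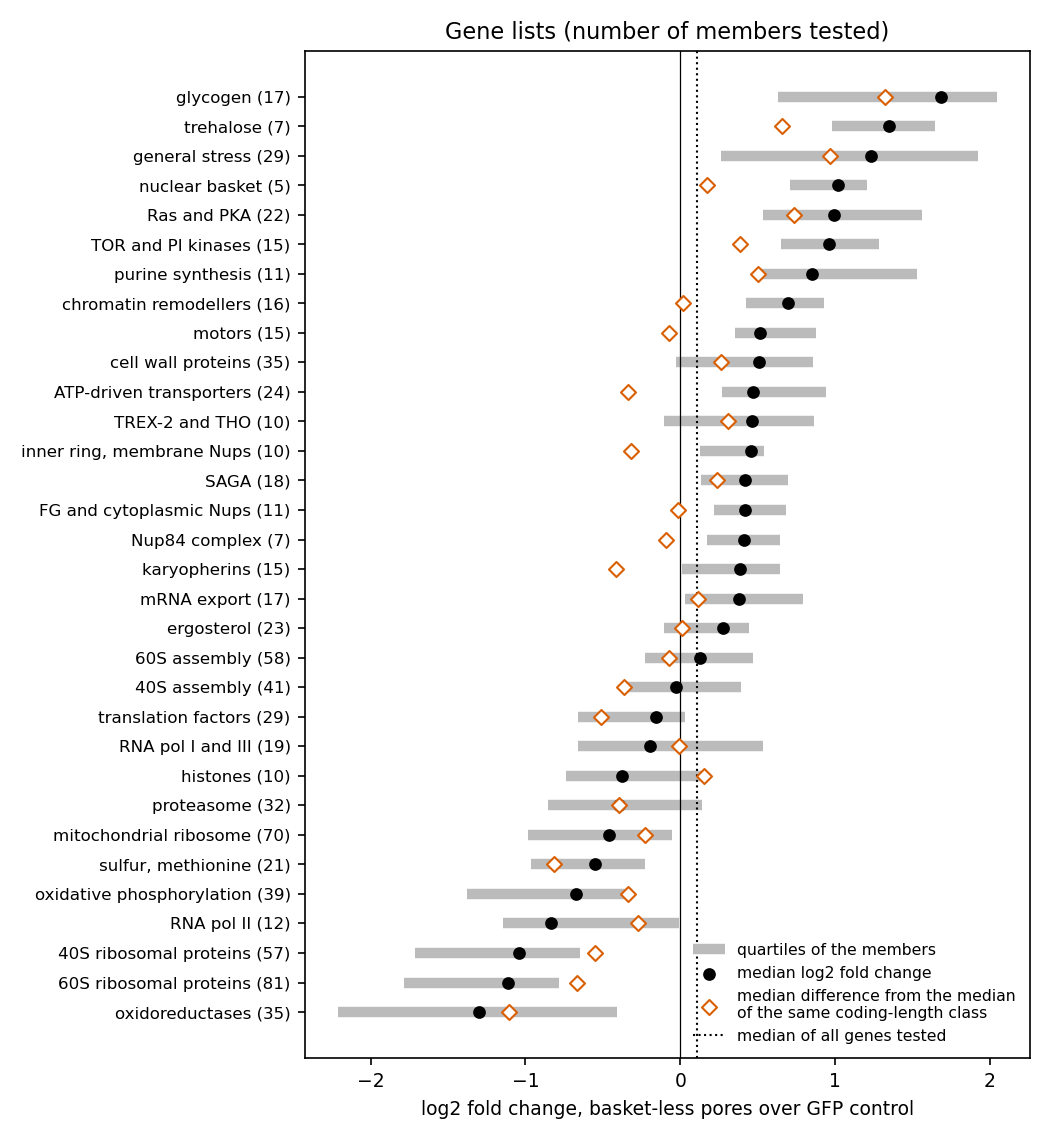
Gene lists ordered by the median log2 fold change of basket-less pores over the GFP control (black points; grey bars are the quartiles of the members) with the median difference from the coding-length class (open diamonds) and the median of all genes tested (dotted line, 0.11). Glycogen and oxidoreductase genes lie at the ends by both measures, and motors and remodellers move back to near 0 on the length-class scale.

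More mRNAs of pore proteins rose than fell, but relative to genes of the same length class their lists had medians of -0.09 for the outer ring, -0.32 for the inner ring and membrane group, -0.02 for the FG and cytoplasmic side and 0.18 for the basket. For the nuclear basket, MLP2 had 692, 715 and 711 CPM in basket-less pores and 242, 255 and 246 in the control (1.51 ± 0.05), MLP1 512, 518 and 532 against 252, 259 and 260 (1.02 ± 0.04) and NUP1 340, 346 and 320 against 143, 145 and 148 (1.21 ± 0.05). NUP2 rose by 0.71, and NUP60 fell, with 64.09, 67.20 and 64.35 CPM against 79.97, 80.88 and 79.86 (-0.30 ± 0.06). In each of the 5 genes the groups did not overlap, and MLP1 was above input in the control as well, at 1.07. These are mRNA levels and say nothing of the proteins on the purified pores. Of 7 genes of the Nup84 complex, the outer ring, 6 rose (4 rose and 2 fell with upper-quartile factors), led by NUP84 itself with 1.32. The inner ring and membrane group had 7 rises and 2 falls of 10, led by NUP170 (1.40), and NDC1, a membrane nucleoporin, had -0.42. Among 11 FG and cytoplasmic-side nucleoporins 9 rose, NUP82 by 1.27 and NUP159 by 0.91, and DYN2, a short dynein light chain of that side, had 19.6, 22.5 and 19.9 CPM against 78.7, 74.4 and 76.8 (-1.88 ± 0.09).

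Among 17 mRNA export genes 12 rose and 4 fell (8 and 6 with upper-quartile factors). NAB6, an RNA-binding protein, rose by 2.02, NPL3 by 0.84, and TOM1, a ubiquitin ligase, by 0.89. YRA1, the adaptor of the Mex67 export receptor, had -0.84, and CBC2, of the cap-binding complex, -0.87. THO2, of the THO complex that couples transcription to export, rose by 1.39, and SAC3, the scaffold of TREX-2, by 0.83, whereas SEM1, a very short TREX-2 subunit, had -1.01. Karyopherins, the carriers of protein traffic, rose in 11 of 15 cases and fell in 2 (8 and 6 with upper-quartile factors), with a median of 0.39 and -0.42 relative to their length class. Of all genes 47.1% rose and 35.5% fell. Relative to input the karyopherins had a median of -0.72 in the pores, with 10 of 15 lower and 3 higher. In the control it was -0.83, with 14 lower and none higher. CRM1, the main exporter, rose by 1.19, with 0.0004 over input in the pores and -1.19 in the control, and NMD5 had -0.74. TRA1, the largest subunit of SAGA, rose by 1.65, and SGF11, its smallest listed one, had -1.27.

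Reads from the mitochondrial genome were few, 0.0474 ± 0.0034% of counts in basket-less pores, 0.0242 ± 0.0031% in the control and 0.0104 ± 0.0015% in input (SD, n = 3 each). COX1, a subunit of cytochrome oxidase, had 46.4, 50.2 and 63.5 CPM in the pores and 2.19, 1.40 and 2.24 in the control (4.78 ± 0.21), and AI2, the reading frame of an intron within it, 38.4, 34.4 and 34.6 against 1.84, 1.19 and 1.37. AI5_BETA, a second such intron frame, had 155.4, 185.4 and 206.0 CPM against 0.353, 0.0701 and 0.216, a few counts per control library, so no fold is given. These features overlap one another on the genome. ATP6 went the other way, at -1.99.

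The rise over the GFP control was set against that of basket-containing pores over the PrA control, which uses other libraries and IgG as the matrix, so that matrix, strain and pore cannot be told apart in the difference. The difference of the log2 fold changes was positive, larger in basket-less pores, for 2540 genes (39.5%) and negative for 2355 (36.6%), 76.1% in all (edgeR). MLP1 differed the most among the basket genes, with 1.02 over the GFP control and 4.25 over the PrA control (difference -3.23 ± 0.05, edgeR, adjusted p = 2.9e-24). GAC1 rose by 4.18 and 5.61 (difference -1.42 ± 0.09), GLC3 by 3.41 and 4.25 (-0.83 ± 0.06), and AAD6 stood at -5.05 and -4.18 (-0.87 ± 0.09). The storage and stress lists had smaller rises with basket-less pores: the difference was negative in all 7 trehalose genes, in 24 of 29 stress genes and in 13 of 17 glycogen genes, with medians of -1.16, -1.12 and -0.83 against 0.03 for all genes. Genes of ribosome production, and ergosterol genes, had the opposite sign. The difference was positive in 77 of 81 and 54 of 57 ribosomal protein genes (medians 1.29 and 1.37), in 52 of 58 large-subunit and 36 of 41 small-subunit assembly factors (1.53 and 0.85), in all 8 core proteins of small nucleolar particles (2.38) and in 19 of 23 ergosterol genes (1.28). RPL10 had 1439.5, 1455.6 and 1477.0 CPM with basket-less pores and -1.08 ± 0.04 over the GFP control, with a difference of 2.24, so the fall of its mRNA was the smaller one here.

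Against all nuclear pore complexes caught on the same GFP nanobody, 1305 genes (20.3%) rose and 1468 (22.8%) fell, 43.1% in all (edgeR), with a median of -0.00. Ribosomal protein mRNAs were higher in 71 of 81 and 56 of 57 cases, with medians of 0.42 and 0.41. TOR and phosphatidylinositol kinases, motors and remodellers were lower in 13 of 15, 13 of 15 and 13 of 16 cases, with medians of -0.32, -0.29 and -0.28. Median coding lengths were 4365, 3003 and 3670.5 bases in those lists, and 450 and 432 in the ribosomal protein lists. The share taken by genes of at least 3000 bases was 14.4% with basket-less pores, against 17.5% with all nuclear pore complexes. For genes under 500 bases it was 5.78% against 4.85%. The part of coding length in these list differences was not tested. MLP1 had -0.65 (edgeR, adjusted p = 8.5e-12), GAC1 -0.58 and IRA2 -0.55, whereas CHA1 at 0.03, GTT2 at 0.10 and OYE3 at -0.11 did not pass the test. Of the 35 oxidoreductase genes 10 were higher and 5 lower, with a median of 0.10.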

How the data were processed

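The authors deposited 1 file of raw counts per feature for each library. Per the submitters' processing notes they used STAR, featureCounts, DESeq2 and the R64 build. The sources used here do not give settings, strandedness or the treatment of reads with several matches, so overlapping genes and near-identical copies are uncertain. Counts of all 18 libraries (7127 features) were fitted together in R 4.3.3 with edgeR 4.0.16 (filterByExpr, TMM, no covariate, robust glmQLFit, two-sided glmQLFTest). The 6429 genes tested were adjusted by Benjamini-Hochberg. Standard errors were derived from F and the log2 fold change. DESeq2 1.42.0 was an alternative. CPM values, shares of counts (percent) and fold changes were computed here, and shares were compared with exact permutation tests (scipy 1.17.1). Scripts were tested on simulated data.

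Of the features, 6047 matched the R64 annotation by locus name and 122 by symbol only. Lengths are coding lengths. Promoters and translated coding regions were read from the R64 genome, because separate sequence tables were not used here. Libraries were grouped by title. Named genes are the 20 largest rises and 20 largest falls whose higher group reached 20 CPM, with a standard name and no overlap between libraries, up to 4 members per list by adjusted p with up to 3 in the other direction, all members of lists of at most 12, the basket and marker genes, and the 5 most and 5 least abundant genes past 2-fold. GRE3, ADH7, GSY2 and PGM2, where outside this rule, were chosen after their values were seen. The members and lists were chosen with earlier results of these data known. Low counts give wide errors at these depths, and intervals cover counting and library spread only.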

Additional observations from a re-analysis of the deposited data

Results flagged for a closer look

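For 19 of the genes described first or used as basket and strain markers, the change of basket-less pores over the GFP control differed from that of basket-containing pores over the PrA control (edgeR, Benjamini-Hochberg-adjusted p below 0.05; basket-less minus basket-containing, log2 ± SE, n = 3 libraries in each of 4 groups). Of all genes, 76.1% differed by this test, so a difference is common. The mitochondrial frames COX1 and AI2 rose more with basket-less pores, by 3.47 ± 0.52 and 2.85 ± 0.48. The genes that rose the most rose less than with basket-containing pores: PHO89 had -1.10 ± 0.10, GAC1 -1.42 ± 0.09, MGA1 -0.64 ± 0.14, MTL1 -1.24 ± 0.19, GLC3 -0.83 ± 0.06 and YPK2 -0.95 ± 0.05. MGA1 codes for a protein similar to heat shock transcription factors. Among the genes that fell, AAD6 had -0.87 ± 0.09, OYE3 -0.90 ± 0.09 and GTT2 -0.58 ± 0.09, so they fell further with basket-less pores, and ARG1 had 0.56 ± 0.06. Of the 5 basket genes 3 differed: MLP1 had -3.23 ± 0.05, NUP1 -0.97 ± 0.06 and MLP2 -0.40 ± 0.07. NUP2 and NUP60 did not pass the test. Of the 5 strain markers 2 had a positive difference, URA3 with 1.34 ± 0.06 and ADE2 with 0.46 ± 0.05. Another 2 had a negative one, HIS3 with -1.04 ± 0.14 and LEU2 with -1.05 ± 0.05, and TRP1 did not pass the test. Matrix, strain and kind of pore change together between these pairs of groups and cannot be told apart.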

How the results depend on the processing

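The counts of 3025 higher and 2282 lower genes moved to 2655 and 2608 under DESeq2's size factors, to 2203 and 3125 under upper-quartile scaling, to 2692 and 2613 with no filter on low counts, 2649 and 2688 with only the groups compared, and 2640 and 2597 in the DESeq2 Wald test. Leaving out 1 library of either group gave 2932 to 2972 and 2183 to 2239. Without replicate 3 of the PrA control, a library that stands apart from its partners in the same fit (chosen after seeing the data), the counts were 3059 and 2313. All these stayed within 1.5 times the first counts, as did the counts of the other comparisons. Replicate numbers did not pair the samples (correlations of same-numbered libraries 0.002, -0.08 and 0.015), and the replicate block gave 3024 and 2282. Under these alternatives 207 values of list medians, in 46 lists, moved by more than the SD between libraries without turning sign. A further 15 values, in 6 lists, turned sign, and 497 stayed within that SD. List medians turned sign with upper-quartile factors for small nucleolar particle proteins (-0.22, from 0.05), large-subunit assembly (-0.14), heat shock (-0.17), wall synthases (-0.0858) and phosphate genes (-0.10). With only the groups compared, these particle proteins had -0.0887, large-subunit assembly -0.00645, heat shock -0.0306 and alpha-cell genes 0.29. The particle proteins and heat shock also turned with DESeq2 factors (-0.0738 and -0.0159), with no filter (-0.0602 and -0.00236) and in the Wald test (-0.0736 and -0.0156). With upper-quartile factors the sign of each log2 fold change turned for SEC13 (-0.14), SEH1 (-0.0496), NUP100 (-0.0791), GLE2 (-0.0202), RPL3 (-0.16), NOP1 (-0.0309), CBF5 (-0.0188), RPB3 (-0.11), SHO1 (-0.0894) and LEU2 (-0.11). The log2 fold change of SEC13 was -0.00702 and the log2 fold change of RPL3 -0.0204 with only the groups compared, and the latter was -0.00601 with DESeq2 factors and -0.00555 in the Wald test. Scaling shifts all genes together, and other causes were not tested. The fits with no filter and with only the groups compared also changed the genes tested, to 6961 and 6356. In the latter the median of all genes went from 0.11 to -0.02, while that of alpha-cell genes went from -0.54 up to 0.29. The alpha-cell list had 4 genes in the first fit, among them MF(ALPHA)1 with 0.217 CPM in the pores and 0.635 in the control.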

Other observations

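Over the GFP control, ergosterol genes rose in 16 of 23 cases (69.6%) and fell in 6 (26.1%), against 47.1% and 35.5% of all genes. With upper-quartile factors 9 rose and 10 fell. ERG25 and ERG1 were at 0.87 and 0.64 and ERG2 at -1.43. Relative to input the list had a median of -0.39 in the pores, with 15 lower and 5 higher. In the control it was -0.59, with 16 lower and 1 higher. Iron genes rose in 12 of 23 cases and fell in 8, close to the shares of all genes (47.1% and 35.5%), with FRE5, a putative reductase, at 1.75, ENB1, a siderophore transporter, at 1.74 and FRE1, the main surface reductase, at -1.10. Hexose transporters were divided, with HXT2 at 1.84, SNF3, a glucose sensor, at 1.73, HXT3 at -1.63 and HXT1 at -1.27. Histone genes fell in 7 of 10 cases, with HHT2 at 0.53 and HHF2, its neighbour, at -0.85, though reads of such near-identical copies may be split. Wall synthase genes rose in 9 of 17 cases (52.9%) and fell in 5 (29.4%), near the shares of all genes. With upper-quartile factors 7 rose and 8 fell. Their median was 0.18, and -0.38 relative to their length class. CHS1, a chitin synthase, was at 2.24, SKN1, of beta-glucan synthesis, at 1.71, MNN9, of mannan synthesis, at -0.34 and STT3, of protein N-glycosylation, at -0.82. The core proteins of box C/D small nucleolar particles, NOP58 and NOP56, were at 1.14 and 0.88, while the short NOP10, of box H/ACA particles, had 43.1, 47.0 and 45.7 CPM against 135, 134 and 142. Of the least abundant genes past 2-fold, IME1, the master regulator of meiosis, had 21.4 CPM in basket-less pores and 3.20 in the control. All values are log2 fold changes over the GFP control from edgeR unless given as CPM or relative to input.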
